A study of Mus musculus with 18 samples.

Results

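The interferon-induced transmembrane (IFITM) family is described here by 4 genes, Ifitm1, Ifitm2, Ifitm3 and Ifitm6, out of 32285 genes in each count matrix. All 4 had a row in every one of the 10 mRNA libraries. They were chosen by symbol after their UMI counts in expanded and control skin had been seen in earlier work on these data, so their levels and differences between those arms are given as a description and carry no p-value. The data are single-cell RNA sequencing of mouse back skin under stretch. Mice of both arms, CTRL and EXP, had surgery in which a tunnel was made under the skin from near the tail to the neck, and the EXP mice alone received a hydrogel expander near the neck, held by stitches; expanded below means EXP and control means CTRL. The tunnelling surgery is therefore shared by all samples, and no unoperated skin was used here. Each arm gave 5 libraries, namely sequencing rounds 1 and 2 of day 1, rounds 1 and 2 of day 2, and round 1 of day 4, made from live sorted cells of mice pooled in 1 tube per arm and round. Strain, sex and age of the mice are not given in the sources used here. The titles of the round 2 control samples of day 1 name the mRNA library as hashing and its hashing partner as skin; their library type and name labels say the reverse and were followed. Hashing antibodies, which tag the cells of each mouse, separated 14 mice per arm in 8 of the 10 libraries.

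The libraries held between 17726739 and 75470722 UMIs (unique molecular identifiers, each counting 1 captured transcript). After quality filtering 45488 cells remained, 28452 from control and 17036 from expanded skin. No pair of libraries shared more than 23 cell barcodes, at most 0.377% of the smaller library. Clustering without the Ifitm genes gave 47 clusters, of which 37 were named from marker genes into 18 classes; 10 clusters stayed unnamed, and those with at least 500 cells are called by number and leading genes. A level is the summed UMIs of a gene in all cells of a class in a library, per 1000000 UMIs of that sum (CPM), over libraries with at least 20 cells of the class. The 3′ tag counts are not scaled to transcript length, so levels are compared between classes and arms for a given gene, and not between genes.

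IFITM proteins are small membrane proteins that hinder the fusion of enveloped viruses with cell membranes. IFITM1 sits mainly at the cell surface, and IFITM2 and IFITM3 mainly in endosomes. Several members are induced by interferons: type I interferons signal through the receptor chains Ifnar1 and Ifnar2 to genes with an interferon-stimulated response element (ISRE), and interferon gamma signals through Ifngr1 and Ifngr2 to genes with a gamma-activated site (GAS). IFITM genes are also expressed without infection in many tissues, barrier tissues among them.

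The 4 genes lie within 63088 bases of chromosome 7 on GRCm38, the build that corresponds to the mm10 build of the submitters' processing notes. Ifitm2 (ENSMUSG00000060591) spans chr7:140954837-140955987 on the minus strand, Ifitm1 (ENSMUSG00000025491) chr7:140967221-140969825 on the plus strand, Ifitm3 (ENSMUSG00000025492) chr7:141009586-141010770 on the minus strand, and Ifitm6 (ENSMUSG00000059108) chr7:141015699-141017924 on the minus strand. Ifitm2 overlaps Gm45717, a protein-coding gene model on the same strand that has no row in the matrices. Of the 50-base windows of the Ifitm2 transcripts, 48.5% also occur in another transcript, and most of the shared ones with Gm45717 at the same place. The share was 10.0% for Ifitm3, 5.02% for Ifitm1 and 0% for Ifitm6. How many reads of the members were lost or misplaced by this was not tested.

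The promoters are shown because the members differ there in the elements that interferon-activated factors are known to bind. Each sequence is RefSeq's on GRCm38.p6, 300 bases from 250 before to 50 after the RefSeq start site, 5′ to 3′ along the gene. Capitals mark matches on either strand to the ISRE letters (GAAA, any 2 bases, GAAA) or the GAS letters TTCNNNGAA. The windows are chr7:140967826-140968125 for Ifitm1, chr7:140955912-140956211 for Ifitm2, chr7:141010695-141010994 for Ifitm3 and chr7:141016843-141017142 for Ifitm6. For Ifitm1 and Ifitm6 the RefSeq start and the whole window lie inside the gene span given above. Sequence before those spans was not searched.
Ifitm1: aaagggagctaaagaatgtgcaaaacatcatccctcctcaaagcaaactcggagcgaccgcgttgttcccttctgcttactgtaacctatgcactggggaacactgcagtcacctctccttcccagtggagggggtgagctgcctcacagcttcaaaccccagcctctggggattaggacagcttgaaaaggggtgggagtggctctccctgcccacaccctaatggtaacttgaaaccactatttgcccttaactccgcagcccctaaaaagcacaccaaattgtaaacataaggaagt
Ifitm2: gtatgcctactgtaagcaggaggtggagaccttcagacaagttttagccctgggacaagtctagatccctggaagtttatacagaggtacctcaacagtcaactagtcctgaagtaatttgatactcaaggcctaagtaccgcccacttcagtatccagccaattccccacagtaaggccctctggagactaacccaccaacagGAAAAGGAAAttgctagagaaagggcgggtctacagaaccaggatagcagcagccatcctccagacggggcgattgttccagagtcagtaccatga
Ifitm3: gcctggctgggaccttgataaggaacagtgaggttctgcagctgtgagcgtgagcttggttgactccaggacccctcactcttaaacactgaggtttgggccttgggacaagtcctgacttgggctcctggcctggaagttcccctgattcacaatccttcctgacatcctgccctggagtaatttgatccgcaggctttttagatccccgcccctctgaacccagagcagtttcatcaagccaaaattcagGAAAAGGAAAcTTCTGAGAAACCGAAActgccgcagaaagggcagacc
Ifitm6: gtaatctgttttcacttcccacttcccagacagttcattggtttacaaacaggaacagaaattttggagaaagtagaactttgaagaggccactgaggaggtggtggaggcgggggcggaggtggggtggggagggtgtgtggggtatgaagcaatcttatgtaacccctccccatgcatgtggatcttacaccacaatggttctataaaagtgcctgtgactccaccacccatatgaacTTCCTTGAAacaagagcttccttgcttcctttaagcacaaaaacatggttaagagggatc
The Ifitm3 window held 2 ISRE matches and 1 GAS match, and the GAS match overlapped the second ISRE match. Ifitm2 held 1 ISRE match, Ifitm6 held 1 GAS match, and these letters were not found in the Ifitm1 window. Among 32851 promoters of the same length, 3.44% held the ISRE letters and 8.3% the GAS letters. A match describes the sequence and does not show a bound site.

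In control skin each member had its own pattern over the classes. Ifitm1 was highest in neutrophil-like cells (2090 ± 351 CPM, SD, n = 2) and next in dermal papilla-like cells, the mesenchymal cells at the base of hair follicles (516.5 ± 109 CPM, n = 3). It followed in cluster 18, led by the smooth muscle and pericyte genes Acta2, Myh11 and Rgs5 (358.2 ± 121 CPM, n = 5), cluster 12 (Fmod, Cck, Kera), cluster 14 (Prok2, Tnfrsf11b, Coch) and cluster 16 (Lrrc15, Tnn, Foxd1; 115.9 ± 31.3 CPM). From dermal papilla-like cells down to cluster 16, the library ranges of neighbours in this order overlapped. In all other classes the control mean was at most 26.4 CPM, the value in endothelial-like cells. Fibroblast-like (14.53 ± 8.3), macrophage or monocyte-like (9.896 ± 4.08) and basal keratinocyte-like cells (2.738 ± 4.31 CPM) were among the low ones.

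Ifitm3 had a different order. It was highest in lymphatic endothelial-like cells (3309 ± 774 CPM, SD, n = 5) and endothelial-like cells (3172 ± 305 CPM), whose ranges overlapped, and both lay above cluster 18 (1660 ± 306 CPM). Fibroblast-like cells held 1083 ± 475 CPM, macrophage or monocyte-like cells 440.4 ± 106 CPM and dendritic-like cells 82.65 ± 27.2 CPM. Ifitm2 was highest in neutrophil-like cells (4932 ± 339 CPM, n = 2), followed by lymphatic endothelial-like (1279 ± 184) and endothelial-like cells (1247 ± 123 CPM, n = 5), and it passed the filter on low counts in all 14 classes tested. Ifitm6 was nearly restricted to myeloid cells: its control mean was 91.5 CPM in neutrophil-like cells (n = 2), 10.36 ± 4.76 CPM in macrophage or monocyte-like cells and close to 0 in the rest. Outside neutrophil-like, macrophage or monocyte-like and dendritic-like cells, no class mean passed 0.641 CPM in control or 1.35 CPM in expanded skin. In T cell-like cells 9 of the 10 libraries held 0 Ifitm6 UMIs, which allows a level of up to 1.86 to 6.27 CPM depending on the library, and the other library held 1 UMI.

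**Figure D1:**
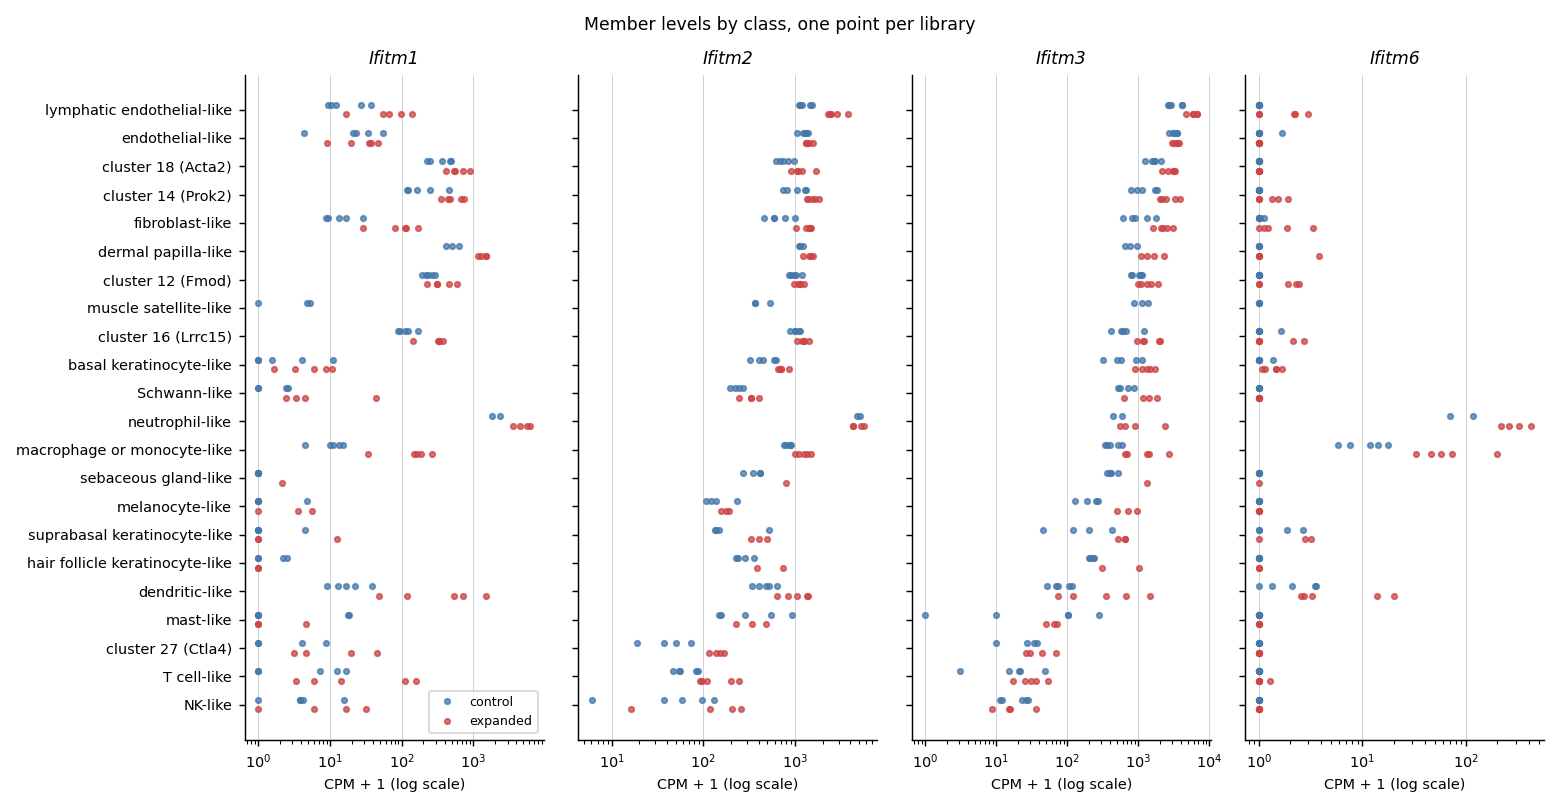
Levels of the 4 members by class: the x axis is CPM + 1 on a log scale, and each point is a library, blue for control and red for expanded. Ifitm1 in macrophage or monocyte-like cells lies between 3.555 and 14.33 CPM in control and between 33.14 and 264.2 CPM in expanded libraries, while the endothelial-like points of both arms overlap.

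Shares of cells with at least 1 UMI were measured after each cell was thinned to 2000 UMIs, since cells of expanded skin often carried more UMIs; shallower cells were left out (271 control and 78 expanded macrophage or monocyte-like, 45 and 10 dendritic-like, 209 and 53 endothelial-like, 13 and 5 NK-like cells). In endothelial-like cells 97.5% ± 1.25 of control and 98.0% ± 0.972 of expanded cells had an Ifitm3 UMI (SD, n = 5 libraries each). NK-like cells, with median depths of 6237 and 6927.5 UMIs, showed 3.1% ± 2.08 and 4.45% ± 3.44 (n = 5 and 4). The part of free RNA in the droplets in these shares was not tested. In dendritic-like cells, with median depths of 11227 and 15280.5 UMIs, the share with Ifitm1 was 1.93% ± 0.535 in control and 20.6% ± 18.1 in expanded libraries, against 0.642% ± 0.95 and 2.36% ± 1.64 in NK-like cells. Without thinning the dendritic-like shares were 6.14% ± 1.74 and 32.9% ± 22.0. In macrophage or monocyte-like cells the thinned share with Ifitm1 was 1.21% ± 0.717 and 12.3% ± 6.81, or 3.57% ± 1.38 and 26.7% ± 9.05 unthinned. The share of dermal papilla-like cells with Ifitm1 was 56.6% ± 8.51 (n = 3) and 77.6% ± 3.98 (n = 4). Ifitm1 in T cell-like cells of control skin (0.314% ± 0.43) was no higher than in NK-like cells.

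Expanded and control skin could be compared in 14 classes or clusters with at least 4 libraries per arm. A gene was called where edgeR's quasi-likelihood test, fitted with a term for day, gave a Benjamini-Hochberg adjusted p under 0.05 over all genes of the class. The fitted log2 fold changes use a further scaling between libraries (TMM) and CPM values do not. Both can therefore differ in size and, near 0, in sign. Overlap of libraries and folds by day were taken from CPM. Of the 56 combinations of a member and a class, 38 passed the filter on low counts; 20 were called higher in expanded skin and 0 lower. Over all genes of these classes 6.01% of tests were called higher and 6.63% lower. Because the family was chosen with this contrast known, nothing is read from the members' count beyond the description. Ifitm1 passed the filter in 11 classes and was called in 6, Ifitm2 in 14 and 6, Ifitm3 in 12 and 7, and Ifitm6 in 1 and 1. Of 39 combinations with a mean of at least 10 CPM, every expanded library lay above every control library in 14 and none in the reverse order. The share over all genes at that level was 5.92% in that direction. By class that share ran from 1.48% in T cell-like to 18.5% in fibroblast-like cells. It was 9.07% in basal keratinocyte-like, 8.59% in macrophage or monocyte-like, 8.0% in dendritic-like and 6.2% in lymphatic endothelial-like cells.

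**Figure D2:**
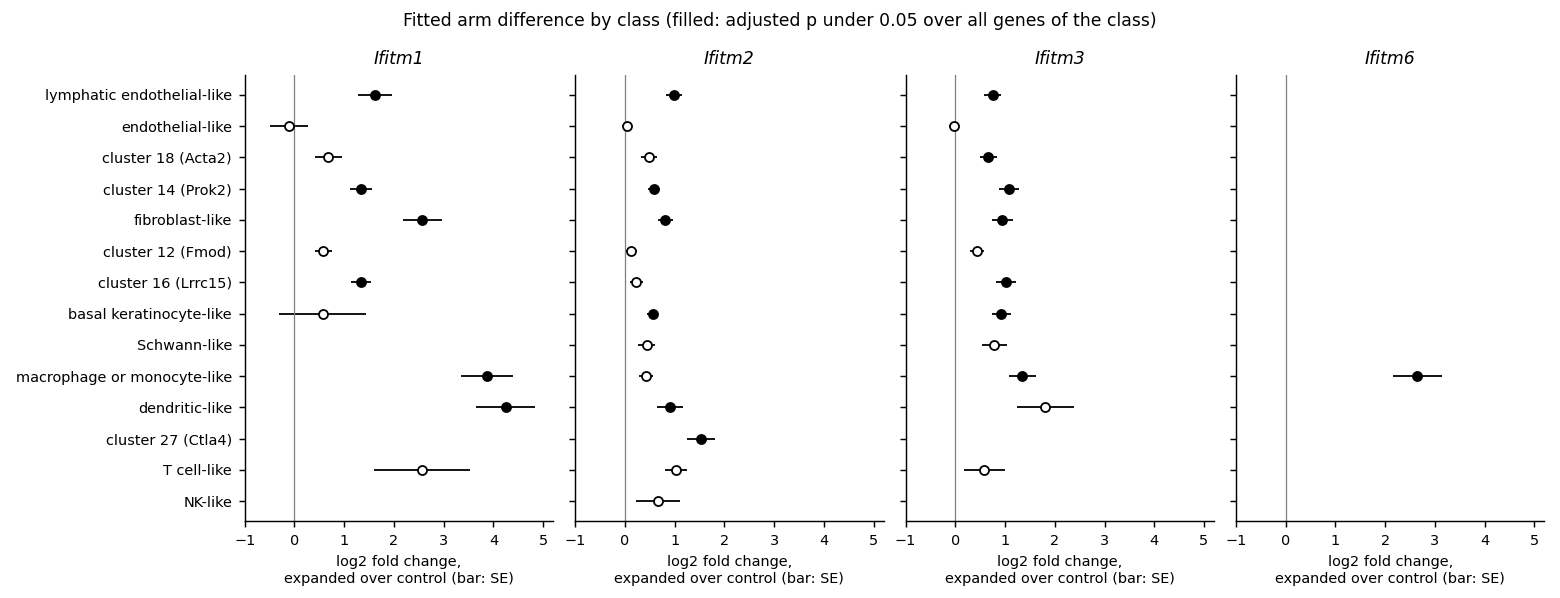
Fitted log2 fold change of each member, expanded over control, by class, with bars of 1 SE; filled points are called at an adjusted p under 0.05 over all genes of the class. Ifitm1 in dendritic-like (4.24) and macrophage or monocyte-like cells (3.87) lies farthest to the right, and the 3 endothelial-like points lie at 0 within their errors.

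The widest gap between the arms was that of Ifitm1 in dendritic-like cells, a class of antigen-presenting cells. In control skin the day 1 libraries had 11.78 and 15.48 CPM, those of day 2 had 21.11 and 37.49 CPM, and that of day 4 had 7.997 CPM. In expanded skin the day 1 libraries had 47.6 and 119.4 CPM, those of day 2 had 720 and 1523 CPM, and that of day 4 had 540.8 CPM. All 5 expanded libraries lay above all 5 control libraries, the lowest of them being those of day 1. The fitted log2 fold change was 4.24 (SE 0.593), and 5.37% of all genes were called higher in this class.

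Macrophage or monocyte-like cells showed the second largest difference of Ifitm1. The control libraries, in the order of day and round, had 12.35, 9.085, 3.555, 10.16 and 14.33 CPM. The expanded ones had 33.14, 264.2, 183.3, 146.4 and 165.3 CPM. The arms did not overlap, although round 1 of day 1 was well below the other expanded libraries. The log2 fold change was 3.87 (SE 0.516), where 8.85% of all genes were called higher.

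In fibroblast-like cells Ifitm1 was 7.804, 12.4, 8.366, 28.17 and 15.9 CPM in the control libraries, in the order of day and round, and 27.6, 111.6, 78.77, 115.4 and 168.4 CPM in the expanded ones. The lowest expanded library fell just under the highest control library, and each expanded library was above the control library of its own day and round. The log2 fold change was 2.57 (SE 0.396). In this class 17.9% of all genes were called higher, the most of the classes compared. Lymphatic endothelial-like cells had 18.39 ± 12.5 CPM in control and 74.29 ± 46 CPM in expanded skin (SD, n = 5 each; log2 fold change 1.61, SE 0.343; 6.42% of all genes called higher), with overlap at the expanded library of day 4 (15.5 CPM).

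Other mesenchymal clusters started from a higher level of Ifitm1 and differed less. Cluster 14 held 221.8 ± 142 and 539.8 ± 164 CPM (log2 fold change 1.34, SE 0.227; background 3.26%), and cluster 16 held 115.9 ± 31.3 and 297.4 ± 90.4 CPM (1.34, SE 0.195; background 1.16%). Both were called, and in both each of the 5 day and round pairs was higher in the expanded library. Cluster 12 (0.57, SE 0.171; background 1.74%) and the Acta2-led cluster 18 (0.68, SE 0.267; background 8.17%) were not called. With libraries of the same day and round paired as a replicate block, cluster 12 was called at the same size, 0.57. It was called at 0.55 with no filter on low counts and at 0.83 after thinning. Cluster 18 was called at 0.69 with no filter, and at 0.87 without the expanded library of day 1, round 2. In the neutrophil-like class, which had 2 control libraries and so was not tested, Ifitm1 was 2338 and 1842 CPM in control and 3540 to 6260 CPM in 4 expanded libraries. In dermal papilla-like cells, with 3 control libraries, it was 415.5 to 632.7 CPM and 1169 to 1512 CPM, without overlap in either class. Coarser clustering gave a larger dermal papilla-like class (1943 against 1490 cells), with enough libraries for a fit. Ifitm1 was called in that class (log2 fold change 1.78, SE 0.228).

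Not every class showed this. Ifitm1 in endothelial-like cells was 26.4 ± 18.6 CPM in control and 28.53 ± 15.1 CPM in expanded skin (log2 fold change -0.10, SE 0.38), with full overlap of the arms; 5.43% of all genes were called higher there. Basal keratinocyte-like cells stayed at 10.12 CPM or less in every library. In T cell-like cells (background 0.0961%) the log2 fold change of 2.57 (SE 0.962) was not called. It came mainly from 2 expanded libraries: 152 UMIs in 9 of 142 cells on day 1, round 1, and 151 UMIs in 9 of 210 cells on day 4. Without the expanded library of day 1, round 2, it was called, at 3.26, and with no filter on low counts, at 2.55.

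Ifitm3 was called in 7 classes. In macrophage or monocyte-like cells its control levels were 398, 337.8, 364.4, 583.8 and 517.9 CPM, and its expanded levels were 656.6, 698.2, 1324, 2671 and 1390 CPM, in the order of day and round. The arms did not overlap, and the expanded libraries of day 1 were the closest to control (log2 fold change 1.35, SE 0.268). Lymphatic endothelial-like cells, which already had the highest control level, held 4666 to 6757 CPM in expanded against 2604 to 4172 CPM in control libraries (0.75, SE 0.171), again without overlap. Endothelial-like cells of blood vessels held 3172 ± 305 and 3371 ± 288 CPM (log2 fold change -0.03, SE 0.0995). Whether lymphatic and other endothelial-like cells differed in their response was not tested.

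Among mesenchymal and epithelial classes, Ifitm3 was called in 5. Fibroblast-like cells had 1083 ± 475 CPM in control and 2307 ± 544 CPM in expanded skin (log2 fold change 0.94, SE 0.212), and basal keratinocyte-like cells 689.2 and 1298 CPM (0.92, SE 0.187; background 10.1%). Cluster 14 had 1284 ± 471 and 2743 ± 788 CPM (1.08, SE 0.197) and cluster 16 had 687 and 1472 CPM (1.02, SE 0.203). In cluster 18 it was 1660 ± 306 and 2851 ± 445 CPM (0.67, SE 0.176). The call of cluster 18 was lost without either library of day 4 (0.66 and 0.67), and that of cluster 16 without either library of day 4 or the expanded library of day 1, round 1 (1.01 to 1.07). Cluster 12 was not called, with 961.9 ± 155 and 1356 ± 353 CPM (0.43, SE 0.138); on day 4 its expanded library was below control (0.885 times), and without either library of day 4 it was called, at 0.59. Melanocyte-like cells, with too few libraries for a fit, had 126.6 to 266.6 CPM in 4 control libraries and 498.4 to 958.9 CPM in 3 expanded ones.

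In dendritic-like cells Ifitm3 was 73.54, 68.42, 50.01, 106 and 115.3 CPM in control libraries and 73.24, 117.7, 679.5, 1468 and 343.7 CPM in expanded ones, in the order of day and round. The day 1 libraries of both arms overlapped, and the later expanded libraries were above all control libraries. The log2 fold change of 1.81 (SE 0.572) was not called. It was called at 1.79 with the replicate block, at 1.96 after thinning and at 1.79 with no filter on low counts. Without the expanded library of day 1, round 1, it was called at 2.26. Coarser clustering gave a dendritic-like class of 3023 cells, against 2451 here, in which Ifitm3 was called at 1.33. Schwann-like cells (665 and 1252 CPM, log2 fold change 0.79, SE 0.243, background 0.0743%) were not called either, except with no filter on low counts (0.80).

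The log2 fold change of Ifitm2 was above 0 in all 14 classes, between 0.05 and 1.54, and 6 were called. Lymphatic endothelial-like cells held 1142, 1515, 1118, 1439 and 1183 CPM in control and 3742, 2842, 2283, 2471 and 2380 CPM in expanded libraries. No library of one arm reached the other (log2 fold change 0.99, SE 0.164). Fibroblast-like cells held 684.3 ± 214 and 1345 ± 192 CPM (0.81, SE 0.147) and basal keratinocyte-like cells 477.8 and 721.4 CPM (0.56, SE 0.113), both without overlap. With coarser clustering the basal keratinocyte-like class held 2219 cells, against 3838 here, and its Ifitm2 difference was 0.54 and not called. Cluster 14 held 1037 ± 260 and 1551 ± 193 CPM (0.59, SE 0.121).

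Among immune cells, the Ifitm2 differences were less settled. Dendritic-like cells had 476.7 ± 113 and 1058 ± 330 CPM (0.91, SE 0.259), a call that was lost in 7 of the 10 fits that leave out 1 library: any control library except round 2 of day 1, or any expanded library of days 2 and 4 (0.69 to 0.96). Coarser clustering, at a resolution of 1, gave a dendritic-like class of other size (3023 against 2451 cells), with 0.46 and no call. A cluster led by Ccl22, Zmynd15 and Cd207 stood apart at that resolution, and Ifitm2 was called in it at 1.63. Macrophage or monocyte-like cells had 765.2 to 904.1 CPM in control and 988.4 to 1498 CPM in expanded libraries, which did not overlap, yet the log2 fold change of 0.42 (SE 0.141) was not called. It was called at 0.43 with DESeq2 and at 0.42 with the replicate block. It was called at 0.52 without the second-round control library of day 1, and at 0.51 without the first-round expanded library of day 1. Cluster 27, led by the regulatory T cell genes Ctla4, Foxp3 and Tnfrsf4, held 44.24 and 142.4 CPM over 4 libraries per arm (1.54, SE 0.28; background 0.103%). That call was lost without either library of day 1, round 2, or either of day 4 (1.39 to 1.72), and over all libraries with DESeq2 (1.58). In T cell-like cells it was 46.01 to 85.66 CPM and 90.08 to 242.8 CPM (1.04, SE 0.222), not called over all 10 libraries with edgeR; it was called over the same libraries with DESeq2 (1.04) and with no filter on low counts (1.04), and at 1.24 without the expanded library of day 1, round 2. NK-like cells (64.4 and 148.4 CPM; background 0.111%) were not called. The Acta2-led cluster 18 was not called (0.49, SE 0.166). It was called with DESeq2 size factors (0.50), DESeq2 (0.50), the replicate block (0.50) and no filter on low counts (0.49). Thinning to 2000 UMIs (0.58) and a mitochondrial limit of 5% (0.57) also gave calls. So did leaving out the second-round control library of day 1 (0.62) or the expanded library of day 1, round 1 (0.60). Endothelial-like cells held 1247 ± 123 and 1393 ± 108 CPM (0.05, SE 0.102).

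Ifitm6, which in mice is known mainly from myeloid cells, passed the filter of the arm comparison in macrophage or monocyte-like cells alone. Control libraries held 4.839, 16.49, 6.518, 10.79 and 13.15 CPM and expanded libraries 45.15, 31.98, 56.37, 197.4 and 71.68 CPM. The arms did not overlap, and the second round of day 2 stood above the other expanded libraries. The log2 fold change was 2.65 (SE 0.49). In neutrophil-like cells it was 114.4 and 68.65 CPM in control and 217.1 to 418.5 CPM in expanded libraries. Dendritic-like cells reached 12.79 and 19.2 CPM in the expanded libraries of day 2 and 2.585 CPM or less in every control library. With no filter on low counts Ifitm6 was called there too (1.86, from 27 control and 62 expanded UMIs), and in fibroblast-like cells (3.99, and 4.17 with DESeq2) from 2 control and 22 expanded UMIs.

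By day, the folds of the means differed between members and classes. In dendritic-like cells Ifitm1 was 6.13 times as high in expanded as in control skin on day 1, 38.3 times on day 2 and 67.6 times on day 4, where each arm had 1 library. Ifitm3 there was 1.35, 13.8 and 2.98 times as high. In macrophage or monocyte-like cells the ratios were 13.9, 24.0 and 11.5 for Ifitm1 and 1.84, 4.21 and 2.68 for Ifitm3. Fibroblast-like Ifitm3 stood at 2.56, 2.15 and 1.60 times control. The change of the arm difference between days was tested as an interaction with edgeR in 11 classes with all libraries, over 36 combinations of member and class for each contrast. For day 2 against day 1, 0 were called after Benjamini-Hochberg adjustment, and 5 had an unadjusted p under 0.05. For day 4 against day 1 it was again 0, with 5 at an unadjusted p under 0.05. Over all genes 0.00603% and 0.00172% of tests were called in these contrasts. Ifitm3 in dendritic-like cells had one of the larger estimates: its arm difference was higher by 3.52 on the log2 scale on day 2 than on day 1 (SE 0.59, adjusted p 0.147, edgeR). After thinning each cell to 2000 UMIs, that change was 2.90 with an adjusted p of 0.0487 (edgeR). The members were chosen with their counts in both arms seen, so nothing is read from these p-values beyond the description.

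**Figure D3:**
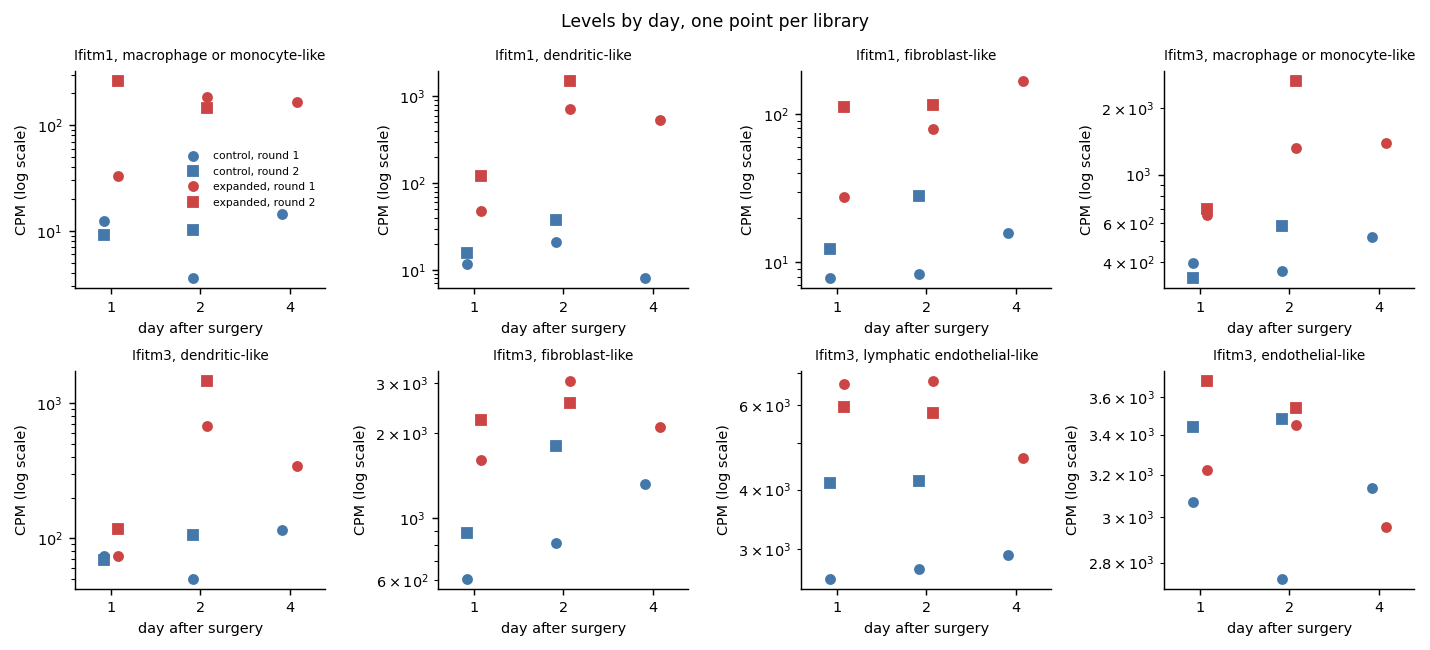
CPM (log scale) of Ifitm1 and Ifitm3 by day after surgery in selected classes, one point per library, circles for sequencing round 1 and squares for round 2, blue for control and red for expanded. In dendritic-like cells the Ifitm3 points of both arms overlap on day 1 and separate on day 2, where the expanded libraries hold 679.5 and 1468 CPM.

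Hashing gave the spread between animals. Mice of an arm and round shared a tube, so they are not independent replicates of the arm difference. On day 2, macrophage or monocyte-like Ifitm1 ran from 0 to 14.31 CPM (median 5.809) in 7 control mice and from 22.47 to 282 CPM (median 144.5) in 7 expanded mice. Ifitm3 ran from 248.5 to 711.3 and from 721.6 to 3636 CPM, and Ifitm6 from 0 to 17.18 and from 22.12 to 272.1 CPM. For these 3 genes no mouse of one arm fell within the range of the other, whereas the Ifitm2 ranges overlapped (507.6 to 1158 and 938 to 1708 CPM). The share of all genes that separate the mice in this way was not counted. In dendritic-like cells of day 2, Ifitm1 was 1.297 to 65.16 CPM in 7 control mice and 388 to 1952 CPM in 4 expanded mice. Ifitm3 ran there from 4.78 to 186.3 and from 407 to 1796 CPM. On day 1 the Ifitm1 ranges of this class overlapped. They were 6.486 to 24.04 CPM in 3 control mice and 8.142 to 159.5 CPM in 2 expanded mice. On day 4 the 4 expanded mice held 115.9 to 213 CPM of Ifitm1 in macrophage or monocyte-like cells and the 4 control mice 3.693 to 62.03 CPM. The higher Ifitm1 level in macrophage or monocyte-like cells was thus seen in each of these mice and was not carried by a single animal.

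**Figure D4:**
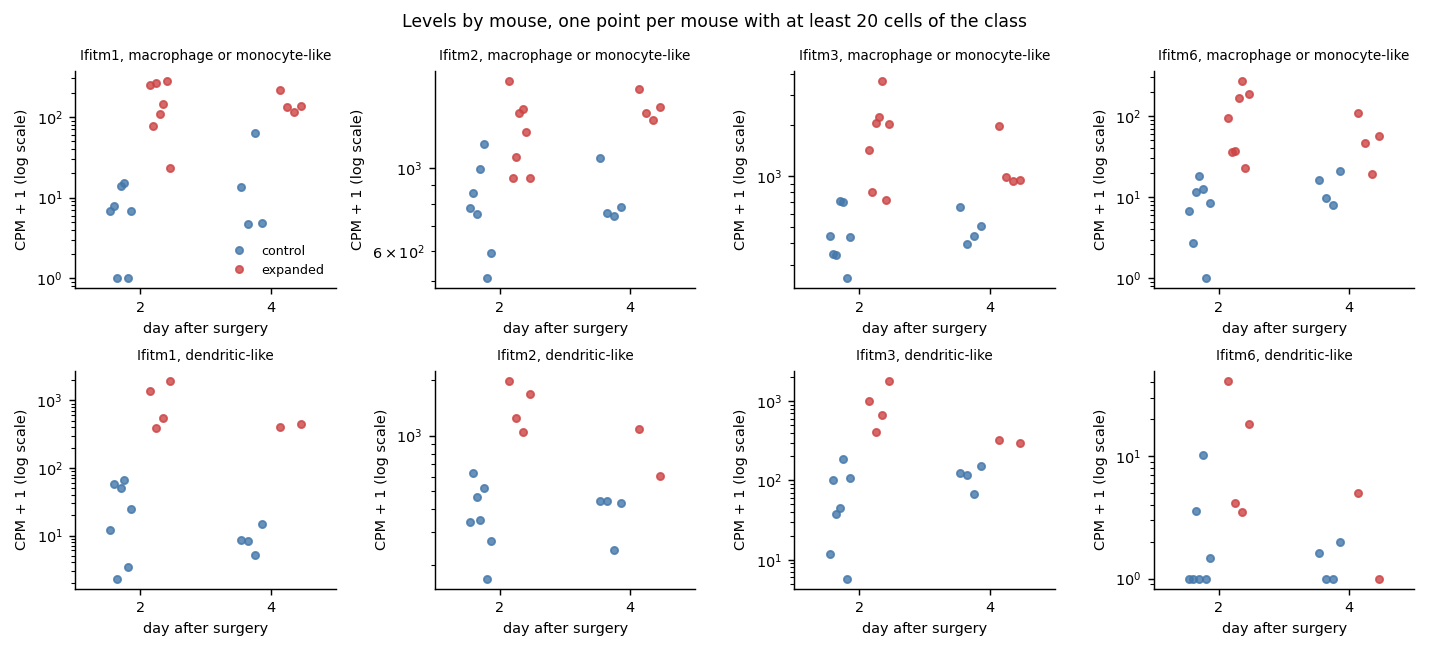
CPM + 1 (log scale) of the 4 members in macrophage or monocyte-like and dendritic-like cells on days 2 and 4, one point per hashed mouse with at least 20 cells of the class, blue for control and red for expanded. Ifitm1 separates the arms in both classes and on both days, and Ifitm6 in dendritic-like cells does not. Dendritic-like cells of day 4 have 4 control and 2 expanded mice. Mice of an arm and round shared a tube, and the share of all genes that separate mice likewise was not counted.

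The classes did not hold the same clusters in both arms. Of control macrophage or monocyte-like cells 46.3% were in cluster 10, 43.1% in cluster 5 and 6.27% in cluster 1. Of the expanded ones 79.1% were in cluster 1. Of control fibroblast-like cells 24.8% were in cluster 0 and 1.43% in cluster 23, against 2.36% and 28.2% of expanded ones. Dendritic-like cells were mostly cluster 3 in both arms (85.3% and 80.7%). Endothelial-like cells were cluster 4 for 66.6% of control and 87.8% of expanded cells, and cluster 24 for 33.4% and 12.2%; no member was called within cluster 4. In fits within single clusters, chosen after the data were seen, Ifitm1 was called in macrophage cluster 5 (4.25, SE 0.366) and in dendritic cluster 3 (3.75, SE 0.495). Ifitm3 was called in macrophage cluster 5 (0.93, SE 0.213), and Ifitm2 was not (0.24, SE 0.173). Of the macrophage or monocyte clusters, cluster 5 alone had such a fit, and Ifitm6 was not in it. In dendritic cluster 3, Ifitm2 was no longer called (0.62, SE 0.27). Fibroblast cluster 9 kept calls of Ifitm2 (0.88, SE 0.148) and Ifitm3 (1.01, SE 0.195) but not of Ifitm1 (0.77, SE 0.584), and no member was called in fibroblast clusters 21 and 29. In cluster 21 the estimates were near those of the whole class with larger errors: 2.37 (SE 0.699) for Ifitm1, 0.81 (SE 0.394) for Ifitm2 and 0.80 (SE 0.445) for Ifitm3. In cluster 29 they were 0.96 (SE 0.319), 0.45 (SE 0.212) and 0.44 (SE 0.193). Basal keratinocyte clusters 2 and 11 each had Ifitm2 and Ifitm3 called.

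Neutrophil-like cells, which carry the most Ifitm1, were unequally frequent, with 71 control and 1179 expanded cells in the libraries described. Their 9 markers summed to 97920 to 147700 CPM in that class. In macrophage or monocyte-like cells the same list summed to 87.1 to 172.6 CPM in control and 439.5 to 1965 CPM in expanded libraries, with 0 to 2 of the 9 markers at 0 per library. S100a8 (log2 fold change 5.39, adjusted p 0.00136, edgeR) and Trem1 (1.58, adjusted p 0.0028, edgeR) rose there and Mmp9 fell (-3.11, adjusted p 0.025, edgeR). S100a9 (2.82, SE 1.07), Il1r2 (0.91, SE 0.341) and Csf3r (-0.36, SE 0.205) were not called. Per 1000 UMIs of the list, neutrophil-like cells of expanded skin held 33.4 to 46.01 UMIs of Ifitm1, macrophage or monocyte-like cells 49.39 to 376.2 and dendritic-like cells 136 to 2061. For Ifitm6 the ratios were 1.596 to 3.052 in neutrophil-like and 29.14 to 163.1 in macrophage or monocyte-like cells. The Ifitm1 ranges of neutrophil-like and macrophage or monocyte-like cells lay close to each other (46.01 and 49.39 at their nearest). The part of neutrophil RNA in the members' differences was not tested. In dendritic-like cells the neutrophil list summed to 288.4 to 509.3 CPM in control and 350 to 738.6 CPM in expanded libraries. The 11 macrophage or monocyte markers summed there to 3988 to 7843 and 2302 to 4695 CPM, lower in expanded skin. The 4 basophil markers stayed at 19.88 CPM or less in dendritic-like and 3.701 CPM or less in macrophage or monocyte-like cells.

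Of the interferon genes, Ifnb1 and Ifng were looked at. Ifnb1, a type I interferon, had a mean of 3.18 CPM in control and 1.12 CPM in expanded macrophage or monocyte-like cells (48 and 35 UMIs), and no more than 6 UMIs per arm in any other class. Ifng, interferon gamma, was highest in NK-like cells, at 126 ± 115 CPM in control (SD, n = 5) and 195 ± 261 CPM in expanded skin (n = 4). It was 21.3 ± 11.3 and 30.2 ± 30.4 CPM in T cell-like cells (n = 5 each) and 23.2 and 13.3 CPM in cluster 27. The spread between libraries was wide, and the log2 fold change of Ifng, 0.02 (SE 0.688) in NK-like and 0.16 (SE 0.472) in T cell-like cells, was not called. The receptor chains Ifnar1, Ifnar2, Ifngr1 and Ifngr2 were not called in any of the classes where they passed the filter. In macrophage or monocyte-like cells, for example, Ifnar1 had 106 ± 38.4 CPM in control and 145 ± 17.6 CPM in expanded skin (adjusted p 0.192, edgeR).

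A list of 50 interferon response genes, 48 of them with a row, was counted in each class. Over the 14 classes 34 calls were higher and 52 lower in expanded skin, and 23 of the 34 were in macrophage or monocyte-like cells. The list genes tested per class numbered 12 to 47, so the counts are set beside the background of each class. Macrophage or monocyte-like cells had 23 of 47 tested list genes called higher and 2 lower (8.85% and 11.5% of all genes). Their median log2 fold change was 0.88, against 0.00 over all genes. The antiviral genes Ifit1bl1 (3.33, SE 0.511, adjusted p 0.00321, edgeR), Ifi44 (3.03, SE 0.5) and Ifit2 (2.32, SE 0.361) rose most, and Irf7, a transcription factor of the type I response, rose by 1.81 (SE 0.388). The exceptions were Iigp1, an interferon gamma-induced GTPase (-2.45, SE 0.352), and Oasl1 (-1.80, SE 0.537), which fell. Cluster 1 held 6.27% of control and 79.1% of expanded cells of this class. Cluster 10, with Oasl1 among its leading genes, held 46.3% and 4.45%. The part of this shift in the changes of the list was not tested. Dendritic-like cells had 6 of 34 called higher, among them Oasl2 (2.19), Rtp4 (1.96) and Xaf1 (1.54), and 1 lower, Gbp2 (-1.21). Over all genes of that class 5.37% were called higher and 6.55% lower.

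In the endothelial-like class, where no member was called, 19 of 42 list genes fell and 0 rose (median log2 fold change -0.75). Over all genes of that class 6.96% were called lower and 5.43% higher. The share of cluster 24 in this class was also lower in expanded skin (33.4% and 12.2%), and its part in the fall was not tested. The GTPase genes Igtp (-1.66, SE 0.202, adjusted p 0.000796, edgeR), Gbp2 (-1.62, SE 0.189) and Iigp1 (-1.58, SE 0.178), all induced by interferon gamma, fell most. Fibroblast-like cells had 2 of 40 called higher, Rsad2 (1.72) and Eif2ak2 (0.61), and 11 lower, led by Gbp2 (-2.09, SE 0.135). Over all genes of that class 17.9% were called higher and 17.6% lower. Cluster 0 held 24.8% of control and 2.36% of expanded cells there, and the part of such shifts was not tested. Lymphatic endothelial-like cells had 0 of 27 higher and 2 lower, among them Igtp (-0.92), beside 6.42% and 6.56% of all genes. In that class Ifitm1, Ifitm2 and Ifitm3 were all called higher. Cluster 18 had 0 of 25 higher and 10 lower (background 8.17% and 11.3%). Basal keratinocyte-like cells had 1 of 24 higher, Ly6a (1.08), and 3 lower (background 10.1% and 8.87%). The lower counts of the lymphatic and basal classes lie near the background. The number of list genes called lower over all classes was 33 when the second-round control library of day 1 was left out, and 24 without either library of day 4. After thinning each cell to 2000 UMIs, 22 list calls were higher and 29 lower.

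**Figure D5:**
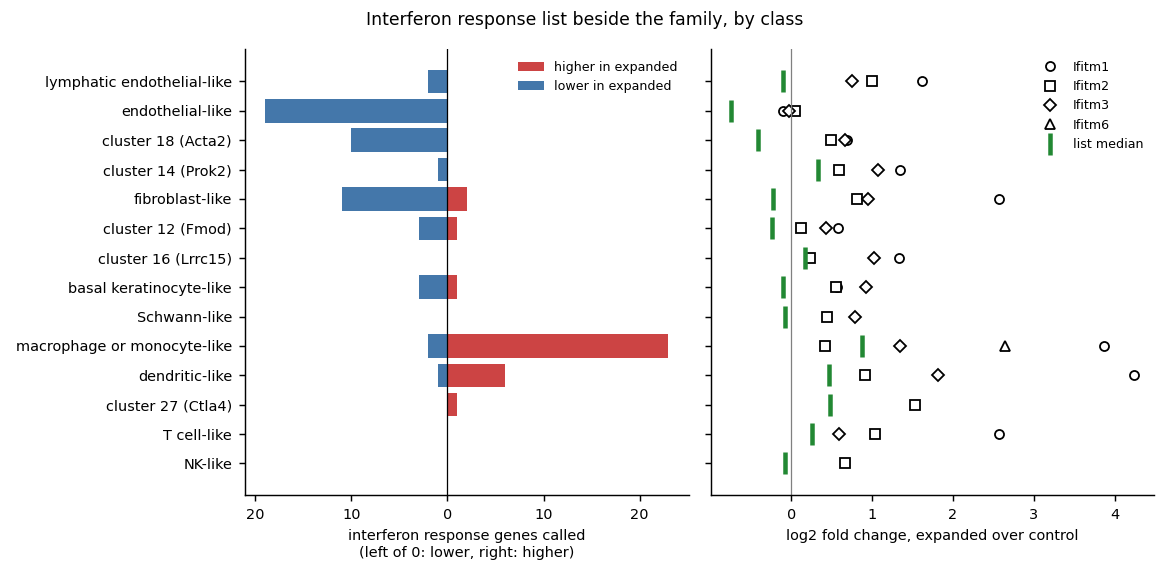
Left, the number of interferon response genes called lower (blue) or higher (red) in expanded skin in each class; right, the log2 fold change of each member (open symbols) beside the median of the list (green bar). Macrophage or monocyte-like cells have 23 list genes higher, and endothelial-like cells 19 lower with the members near 0.

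Genes whose levels followed those of a member were named by the highest Pearson correlation of log2(CPM + 1) over 184 sums of a class in a library, from 22 classes, among 8906 genes. These sums share libraries and classes, so the values describe likeness of pattern and carry no p-value. For Ifitm2 the closest gene was Ifitm3 (0.804), followed by Ier3 (0.778) and Lamp2 (0.742). Besides Ifitm2, Ifitm3 was closest to App (0.785), Ltbr (0.782), Plod3 (0.779) and Cav1 (0.775), the last a coat protein of caveolae. Ifitm1 was less like any gene: Inhba (0.733), Snai1 (0.71) and Tnfaip2 (0.709) came first, and its correlation with Ifitm3 was 0.452. Ifitm6 followed Cyp4f18 (0.915), Trem3 (0.913) and the neutrophil receptor gene Csf3r (0.911), and had 0.121 with Ifitm3. The other Ifitm symbols in the matrices, Ifitm5, Ifitm7 and Ifitm10, stayed at a class mean of 17.2 CPM or less, and Ifitm5, a gene known from bone-forming cells, was lower in expanded macrophage or monocyte-like cells (-1.26, SE 0.371).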

How the data were processed

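Mouse skin cells were measured by droplet 3′ single-cell RNA sequencing in 10 mRNA libraries, 8 of them with a hashing library. The deposited values are raw UMI counts per gene or hashtag and cell barcode, which the authors obtained from Cell Ranger 6.1.2 on mm10, per the submitters' processing notes. The members and gene lists were chosen with earlier results of these data known.

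Cells needed 200 or more genes, 500 or more UMIs and no more than 10% of UMIs from mitochondrial genes. Doublets were removed by hashtag (Seurat 5.3.0, HTODemux, quantile 0.99) and by Scrublet, which marked 0.0584% to 2.97% of cells; in 4 libraries it marked under 0.5% and is taken not to have worked. Cells were clustered with scanpy 1.11.5 and leidenalg 0.10.2 on 2000 variable genes without the Ifitm genes, 30 components and 15 neighbours. The resolution was set to 2 after clusters at 1, the value used in earlier work on these data, had been looked at and before any Ifitm level was seen; the rule for ties among leading genes was also added then. Clusters were named from marker lists, with at least 3 markers found; rebuilt names may differ from the authors' own.

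Counts were summed per library and class (at least 20 cells) and tested with edgeR 4.0.16 (R 4.3.3), quasi-likelihood, TMM scaling, day as covariate, Benjamini-Hochberg adjustment over all genes of a class, where each arm had at least 4 libraries. The scripts were tested on simulated data. Named genes were the members, the other Ifitm symbols, the genes most correlated with each member (from the first 5), and of the interferon list the 3 with the largest change in each direction among those called in a class; Irf7 and single neutrophil markers were added after their values were seen. One gene of the interferon list is not reported here by name. Nothing says that libraries of a day came from separate experiments beyond the sequencing round, so p-values measure the spread between these libraries. Same-round libraries of both arms were checked for pairing: their deviations correlated between -0.06 and 0.421 over 25 comparisons of class and day. Intervals allowed by 0 counts (3 counts) cover counting error only. Sequences are RefSeq's.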

Additional observations from a re-analysis of the deposited data

Results flagged for a closer look

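Of 120 groups of 4 to 10 libraries or mice, 9 held a value set apart from the rest by a gap larger than Dixon's 95% limit; chance gives about 1 in 20. None of 34 comparisons of days gave a difference that passed its test. Among hashed mice, the order of the arms for Ifitm3 in T cell-like cells differed between day 1 and day 4. On day 1 it was 9.018 to 19.92 CPM in 3 control mice and 30.07 to 108.8 CPM in 3 expanded mice. On day 4 it was 35.69 to 72.21 CPM in 4 control mice and 13.04 to 29.53 CPM in 4 expanded mice. The ranges of day 2 overlapped. Over libraries, the change of this arm difference from day 1 to day 4 was -1.79 (SE 0.963) and was not called. Mice of an arm and round shared a tube, and the share of all genes that separate mice in this way was not counted.

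Among libraries, Ifitm1 in cluster 16 (Lrrc15, Tnn, Foxd1) was lowest in the expanded library of day 2, round 2, at 140.9 CPM, with the others at 316 to 375.6 CPM. The same library was highest for Ifitm6 in macrophage or monocyte-like cells (197.4 CPM, others 31.98 to 71.68) and for Ifitm1 in Schwann-like cells (42.9 CPM, others 1.456 to 3.551). Ifitm2 in basal keratinocyte-like cells was highest in the expanded library of day 4 (850.2 CPM, others 659.6 to 710.4). Ifitm1 in NK-like cells was highest in the control library of day 1, round 2 (14.82 CPM, others 0 to 3.178).

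Among the mice of day 4, a control mouse held 62.03 CPM of Ifitm1 in macrophage or monocyte-like cells (others 3.693 to 12.64). For Ifitm2 in that class a control mouse held 1059 CPM (others 744.3 to 784.2), and in dendritic-like cells one was low at 240.4 CPM (others 432.5 to 442.7). An expanded mouse held 1965 CPM of Ifitm3 in macrophage or monocyte-like cells (others 929.4 to 987.8).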

How the results depend on the processing

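The number of member and class combinations called was 20, and ranged from 17 to 22 over the fits without 1 library each; it was 21 with DESeq2 size factors, 23 with DESeq2, 24 with the replicate block (day and round pairs), 22 after thinning cells to 2000 UMIs, 21 with a mitochondrial limit of 5%, 29 with no filter on low counts and 23 at a clustering resolution of 1, an alternative chosen after seeing the data. Of the 20, 16 were called without each library in turn, and 18 in each of the other settings with the same classes. At resolution 1, 11 of the 13 combinations that could be matched by class name were called, though some of these classes held other cells. No log2 fold change of a called combination changed sign in any of these fits. Interferon list genes called higher numbered 34, and 86 with no filter, 22 after thinning and 24 to 32 without 1 library each. Those called lower numbered 52, and 80 with no filter, 29 after thinning and 24 to 59 without 1 library each. The replicate block gave 42 higher and 57 lower. Calls of a change of the arm difference with day numbered 0, and 8 with no filter and 1 after thinning; the cause was not tested. Shares of cells with a UMI moved most: 78 of 112 values differed by more than 1 SD without thinning. Counts of Ifitm6 outside myeloid cells, and of Ifitm1 and Ifitm3 in T cell-like and NK-like cells, were low. Differences there rest on few UMIs.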
